A study of Mus musculus with 9 samples.

Results

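The snoRNA host genes described here are *Gas5*, *Zfas1*, *Snhg1*, *Snhg3*, *Snhg5*, *Snhg6*, *Snhg8* and *Snhg12*. They were chosen by name as well-known noncoding genes that carry small nucleolar RNAs (snoRNAs), and all 8 were among the 15184 genes of the deposited table. Their levels were compared by RNA-Seq of polyA+ RNA in 9 libraries of mouse embryonic fibroblasts (MEFs), 3 from empty vector cells (Empty), 3 from line SAM1 and 3 from line SAM2. The lines carry the genotype label Hnrnpk_SAM, which stands for synergistic activation mediator cells made to overexpress HNRNPK. In these cells an inactive Cas9 fused to an activator, together with a guide RNA and further activators, is recruited to the *Hnrnpk* promoter. Lentiviral vectors delivered the system to wild-type MEFs, which were selected with blasticidin and hygromycin. The control cells received the Cas9 activator vector with a guide described as non-targeting, for which the methods print the same sequence as for one of the *Hnrnpk* guides, so the identity of the control guide cannot be settled from the text. The methods describe a pair of guides that were used independently. The labels assign neither guide to SAM1 or SAM2, and their library protocol names, beside the empty vector cells, only those of the second guide. Whether SAM1 and SAM2 differ by guide is therefore not known, and each group rests on 1 line of cells. Whether the 3 libraries of a line come from separate cultures is not stated, so p-values measure the spread between these libraries, which may be technical.

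A snoRNA host gene is transcribed as a longer RNA, and snoRNAs are released from its introns after splicing. The snoRNAs of the C/D class guide 2′-O-methylation and those of the H/ACA class guide pseudouridylation, mostly on ribosomal RNA, while a few act in the cleavage of the ribosomal RNA precursor. The spliced host RNAs described here encode no known long protein, and several of them, *Gas5* first among them, are degraded by nonsense-mediated decay when they are translated. The table counts reads of polyA+ RNA per gene, which may include unspliced or intron-retaining host RNA beside the spliced form. It says little of the snoRNA, which has no polyA tail.

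All 8 hosts are annotated as lncRNA genes in GENCODE vM39 on GRCm39, and together they hold 30 snoRNA loci with 32 annotations. *Gas5* (ENSMUSG00000053332, chr1:160861793-160866118, plus strand) holds 9 loci and *Snhg1* (ENSMUSG00000108414, chr19:8700319-8703812, plus strand) holds 8. *Snhg12* (ENSMUSG00000086290, chr4:132035905-132038762, plus strand) holds 4, and *Zfas1* (ENSMUSG00000074578, chr2:166903619-166907799, plus strand) holds 3. *Snhg3* (ENSMUSG00000085241, chr4:132075325-132080997, minus strand) and *Snhg5* (ENSMUSG00000097195, chr9:88377321-88405615, minus strand) hold 2 each. *Snhg6* (ENSMUSG00000098234, chr1:9926809-10014504, minus strand) and *Snhg8* (ENSMUSG00000104960, chr3:123301192-123302578, minus strand) hold 1 each. *Snhg12* and *Snhg3* lie on the same chromosome with a gap of 36562 bases between them.

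Some snoRNAs of *Snhg6*, *Snhg8*, *Snhg3*, *Snhg12*, *Zfas1* and *Snhg5* are given below, among them the near-identical pairs. They are written as DNA of GRCm39 on the strand that reads as the snoRNA does. Capitals mark the C box (TGATGA) and the D box (CTGA) of C/D snoRNAs, or the ACA box of H/ACA snoRNAs, as found by a search of the letters. The C box had to lie within the first 20 bases and the D box within the last 16. The ACA box had to lie near the end of a sequence of 110 bases or more. Boxes elsewhere were not counted. *Snord87* is the snoRNA of *Snhg6* (chr1:10012688-10012774, minus strand), and *Snora24* that of *Snhg8* (chr3:123301586-123301715, minus strand).
Snord87: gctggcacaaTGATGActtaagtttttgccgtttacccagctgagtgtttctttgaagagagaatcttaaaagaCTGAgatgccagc
Snora24: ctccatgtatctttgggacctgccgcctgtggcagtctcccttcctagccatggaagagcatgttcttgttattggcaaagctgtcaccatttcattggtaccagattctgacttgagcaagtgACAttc
*Snora73a* (chr4:132080086-132080290, minus strand) and *Snora73b* (chr4:132079633-132079837, minus strand) are the H/ACA snoRNAs of *Snhg3*, known as U17, which are needed for cleavage of the ribosomal RNA precursor.
Snora73a: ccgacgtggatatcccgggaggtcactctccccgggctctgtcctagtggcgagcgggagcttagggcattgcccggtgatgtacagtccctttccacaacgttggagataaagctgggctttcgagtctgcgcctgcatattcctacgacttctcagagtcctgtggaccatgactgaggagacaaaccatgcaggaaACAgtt
Snora73b: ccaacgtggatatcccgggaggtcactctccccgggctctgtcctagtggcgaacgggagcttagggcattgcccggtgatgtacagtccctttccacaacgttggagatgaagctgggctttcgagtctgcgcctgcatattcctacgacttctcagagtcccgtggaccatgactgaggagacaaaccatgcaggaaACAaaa
*Snord99* (chr4:132038002-132038075, plus strand) and *Snora61* (chr4:132037551-132037680, plus strand) are a C/D and an H/ACA snoRNA of *Snhg12*.
Snord99: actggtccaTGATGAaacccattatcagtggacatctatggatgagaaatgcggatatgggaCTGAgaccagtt
Snora61: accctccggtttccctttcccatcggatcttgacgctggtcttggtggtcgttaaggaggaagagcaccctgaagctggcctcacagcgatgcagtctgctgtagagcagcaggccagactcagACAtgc
*Gm23201* (chr2:166906918-166907006, plus strand) and *Snord12* (chr2:166907196-166907285, plus strand) are C/D snoRNAs of *Zfas1*, and *Snord50a* (chr9:88403582-88403653, minus strand) and *Snord50b* (chr9:88403850-88403921, minus strand) are those of *Snhg5*.
Gm23201: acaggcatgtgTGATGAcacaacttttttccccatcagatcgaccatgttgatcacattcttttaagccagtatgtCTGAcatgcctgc
Snord12: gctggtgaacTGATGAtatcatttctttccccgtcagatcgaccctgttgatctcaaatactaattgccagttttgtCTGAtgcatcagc
Snord50a: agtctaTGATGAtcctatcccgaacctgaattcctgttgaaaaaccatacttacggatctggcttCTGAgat
Snord50b: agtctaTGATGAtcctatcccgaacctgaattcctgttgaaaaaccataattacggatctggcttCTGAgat
*Snora73a* and *Snora73b* differ at 7 of 205 positions, and *Snord50a* and *Snord50b* at 1 of 72. Of the 32 annotations in the hosts, 20 had a C and a D box by this search, 6 an ACA box and 6 neither. Of the 1507 snoRNA genes annotated on the chromosomes of GRCm39, 20.3% had a C and a D box and 38.8% an ACA box by the same search.

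Depth on the listed genes was 41759636 to 49026626 reads per library, and libraries of 1 group correlated across genes with r from 0.995 to 0.997. Whole reads could be recovered from the values of each library within a tolerance of 1e-06, and the hosts had between 494 reads (*Snhg3* in SAM2 replicate 1) and 4933 reads (*Gas5* in SAM2 replicate 2). *Hnrnpk*, the targeted gene, had mean normalized counts of 25773 ± 621 in Empty, 23922 ± 264 in SAM1 and 26563 ± 321 in SAM2 (mean ± SD over 3 libraries). It did not pass the test with both lines pooled (log2 fold change -0.03, adjusted p = 0.642, limma), was lower in the libraries labelled SAM1 (-0.11, adjusted p = 0.00252) and did not pass in those labelled SAM2 (0.04, adjusted p = 0.159), so SAM1 and SAM2 below mean the libraries with those labels. All 12 fibroblast markers were listed, with sums of 1160286 to 1260520 in Empty, 927155 to 984856 in SAM1 and 1269172 to 1310002 in SAM2. Within that list, *Dcn* had means of 11815, 2713 and 2538 in Empty, SAM1 and SAM2, and in the pooled comparison 1 marker was called higher and 3 lower. Of 5 epithelial markers 3 were listed, and their sums were 388 to 429 in Empty, 3733 to 3884 in SAM1 and 243 to 275 in SAM2, mostly *Cldn4*. *Cdh1* (33.9 in Empty and 88.7 in SAM1, adjusted p = 0.000106) and *Krt8* (12.2 and 23.0, adjusted p = 0.0153, limma) also rose in SAM1, and *Epcam* and *Krt18* were not listed. All 4 endothelial markers were listed. Their sums were 301 to 357 in Empty, 4613 to 4988 in SAM1 and 638 to 689 in SAM2. These sums were carried by *Kdr*, with means of 211, 4693 and 536 in Empty, SAM1 and SAM2. In the same order, *Pecam1* had means of 12.9, 29.5 and 11.99, *Cdh5* of 77.6, 64.7 and 51.2, and *Tek* of 35.6, 29.05 and 67.1. Of 6 immune, 3 muscle and 3 neural markers, 2, 1 and 2 were listed, with sums of 529 to 639, 44.4 to 83.0 and 1121 to 1374 in Empty, 753 to 800.1, 90.8 to 111 and 1271 to 1289.9 in SAM1, and 652 to 689, 223 to 245 and 1099 to 1158 in SAM2. The neural sum joined *Tubb3*, with means of 268, 796 and 569 in Empty, SAM1 and SAM2, and *Map2*, with 1011, 483 and 568. The immune sum joined *Cd68*, with 375, 527 and 564, and *Csf1r*, with 225, 252 and 111. The part of all these markers in the results below was not tested.

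Values are normalized counts, that is, read counts divided by the size factor of the library. Log2 fold changes are on the scale of log2(normalized count + 1), and the test was limma with Benjamini-Hochberg adjustment over all 15184 genes and a threshold of 0.05. When the 6 libraries of both lines were set against the 3 Empty libraries, *Snhg1*, *Snhg3* and *Snhg6* fell, *Snhg8* rose, and the other 4 hosts did not pass the test. Over all genes, 26.8% were called higher and 27.0% lower in this comparison, so 1 host higher and 3 lower of 8 was close to the background. The median log2 fold change of the hosts was -0.20, against 0.0087 over all genes. In SAM1 against Empty, 1 host was called higher and 5 lower, with 37.3% of all genes called higher and 36.9% lower, and the median of the hosts was -0.22 against 0.0093 over all genes. In SAM2 against Empty, 2 hosts were called higher and 4 lower, with 35.2% of all genes called higher and 35.3% lower, and the medians were -0.11 and -0.0015. Both lines were compared with the same Empty libraries. The summed normalized count of the 8 hosts was 15507 ± 797 (SD, n = 3) in Empty, 12933 ± 792 in SAM1 and 14078 ± 316 in SAM2. The sum in each SAM1 and SAM2 library lay below that of each Empty library, from 12301 to 14436 against 14666 to 16251. This did not hold when each library was scaled to its own total: as CPM, that is, relative to the summed normalized counts of the library, the hosts had 318 ± 17.5 in Empty, 292 ± 19.8 in SAM1 and 309.7 ± 7.31 in SAM2 (SD, n = 3), and the groups overlapped, with 299 to 334 in Empty, 277 to 315 in SAM1 and 304 to 318 in SAM2. Scaling by the library total moved the median of all genes to 0.13 pooled, 0.15 in SAM1 and 0.10 in SAM2.

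**Figure D1:**
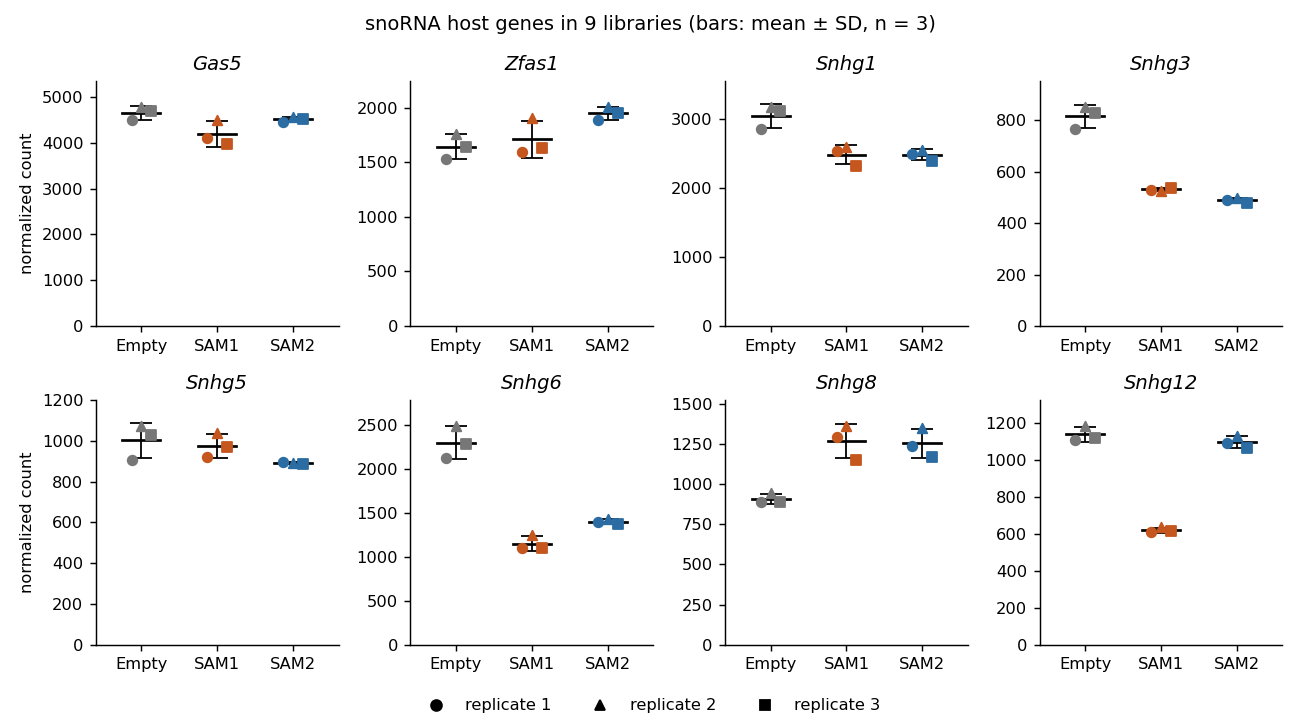
Normalized count (vertical axes, from 0) of each host gene in the 9 libraries by group (horizontal axes). Points are libraries, with a shape for each replicate number, and bars give the mean ± SD (n = 3). *Snhg1*, *Snhg3* and *Snhg6* lie lower in all 6 libraries of SAM1 and SAM2 than in Empty, *Snhg8* lies higher, and *Snhg12* lies lower in SAM1, with a mean of 618 against 1136 in Empty and 1095 in SAM2.

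*Snhg6* showed the largest change of the 8 hosts in the pooled comparison. It hosts *Snord87*, the C/D snoRNA printed above. Its normalized counts were 2129, 2496 and 2287 in Empty, 1096, 1255 and 1104 in SAM1, and 1402, 1428 and 1376 in SAM2. The 3 groups did not overlap, and SAM1 was lowest. Relative to Empty, the mean was 49.98% in SAM1 and 60.9% in SAM2. The log2 fold change was -0.86 ± 0.102 (SE; adjusted p = 8.65e-05, limma) pooled, -1.0 (adjusted p = 6.17e-09) in SAM1 and -0.71 (adjusted p = 2.36e-07) in SAM2. The lines differed by 0.29 (95% interval 0.15 to 0.42; adjusted p = 0.0013, limma), with SAM2 higher.

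*Snhg3*, the host of the U17 snoRNAs *Snora73a* and *Snora73b*, was lower in both lines. Its normalized counts were 765, 849.8 and 829 in Empty, 529, 524 and 538 in SAM1, and 489, 499 and 477 in SAM2. All 6 libraries of the lines lay far below the lowest Empty library. The mean was 65.1% of Empty in SAM1 and 59.9% in SAM2, with log2 fold changes of -0.62 ± 0.0515 (SE; adjusted p = 1.42e-07, limma) and -0.74 ± 0.0515 (SE; adjusted p = 3.06e-08). The pooled value was -0.68 (adjusted p = 1.39e-05). SAM2 lay below SAM1 in all libraries, but the difference of -0.12 (95% interval -0.23 to -0.01) did not pass the test (adjusted p = 0.0606, limma). It passed without Empty replicate 1 (adjusted p = 0.0392), with quantile scaling (0.0459), with scaling by the library total (0.0193) and in limma without trend (0.0457). *Snhg3* lies wholly within *Rcc1* on the same strand, with starts 46 bases apart, and *Rcc1*, which encodes the exchange factor for Ran, did not follow it: its log2 fold change was 0.15 (adjusted p = 0.00533) in SAM1 and -0.03 (adjusted p = 0.582) in SAM2. Reads in exons that both genes share could be split or lost in counting, so both levels carry that uncertainty.

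*Snhg1* carries 8 snoRNA loci, of which 5 had a C and a D box by the search above. Normalized counts of *Snhg1* were 2846, 3167 and 3107 in Empty, 2529, 2594 and 2321 in SAM1, and 2494, 2555 and 2394 in SAM2. Both lines lay below Empty without overlap and overlapped each other. The mean fell to 81.6% of Empty in each line, with a log2 fold change of -0.29 ± 0.0498 (SE) in SAM1 (adjusted p = 0.000133, limma) and in SAM2 (adjusted p = 0.00015), and of -0.29 (adjusted p = 0.000907) pooled. The difference between the lines was 0.00065, with a 95% interval of -0.11 to 0.11. *Slc3a2*, which encodes the heavy chain of amino acid transporters, starts on the opposite strand 789 bases from *Snhg1* and overlaps it by 790 bases. *Slc3a2* fell in SAM1 (log2 fold change -0.52, adjusted p = 5.18e-09, limma) and did not pass the test in SAM2 (0.04, adjusted p = 0.286), and the lines differed by 0.56 (95% interval 0.49 to 0.63; adjusted p = 7.33e-09). The intervals of the line difference of *Snhg1* and *Slc3a2* do not meet, and the difference between these genes was not tested.

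*Snhg8*, the host of the H/ACA snoRNA *Snora24*, was the only host called higher in both lines. The libraries had *Snhg8* counts of 892, 946 and 893 in Empty, 1296, 1367 and 1154 in SAM1, and 1238, 1356 and 1175 in SAM2. The lines overlapped each other and lay above Empty. The mean was 139.8% of Empty in SAM1 and 138.0% in SAM2, with log2 fold changes of 0.48 ± 0.0652 (SE; adjusted p = 1.77e-05, limma) and 0.46 ± 0.0652 (SE; adjusted p = 2.78e-05). The pooled value was 0.47 (adjusted p = 0.000235), and the lines differed by -0.02 (95% interval -0.16 to 0.12; adjusted p = 0.834). With snoRNA genes left aside, no annotated gene overlaps *Snhg8* or starts on the other strand within 1 kb of it.

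*Snhg12* differed most between the lines. It holds *Snora16a*, *Snora44*, *Snora61* and *Snord99*, which lie in introns of 33 to 38 of its 48 annotated transcripts. Its normalized counts were 1107, 1183 and 1118 in Empty, 607, 634 and 612 in SAM1, and 1092, 1128 and 1065 in SAM2. SAM1 lay far below both other groups, which overlapped each other. The mean was 54.4% of Empty in SAM1 and 96.4% in SAM2, with log2 fold changes of -0.88 ± 0.0442 (SE; adjusted p = 8.1e-10, limma) and -0.05 ± 0.0442 (SE; adjusted p = 0.306). The lines differed by 0.82 (95% interval 0.73 to 0.92; adjusted p = 4.73e-09), and the pooled value of -0.46 therefore mixed unlike lines and did not pass the test (adjusted p = 0.126). With quantile scaling the fall in SAM2 passed the test, at -0.12 (adjusted p = 0.0245). *Snhg12* and its neighbour *Snhg3* fell together in SAM1, while in SAM2 *Snhg3* fell and *Snhg12* did not pass the test. SAM1 is also the line with the high *Cldn4* and *Kdr* counts, whose part in this difference was not tested.

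*Gas5*, which encodes no protein and is named for its accumulation in growth-arrested cells, moved little. The *Gas5* counts were 4491, 4777 and 4699 in Empty, 4096, 4505 and 3971 in SAM1, and 4453, 4574 and 4514 in SAM2. SAM1 replicate 2 lay within the Empty range, and so did 2 of the 3 SAM2 libraries. The log2 fold change was -0.15 ± 0.0432 (SE; adjusted p = 0.00589, limma) in SAM1, where the mean was 90.01% of Empty, and -0.04 (95% interval -0.14 to 0.05; adjusted p = 0.378) in SAM2. The pooled value of -0.10 did not pass the test (adjusted p = 0.151). The call in SAM1 was lost when values were scaled by quantiles (log2 fold change -0.06, adjusted p = 0.257) or by the library total (-0.01, adjusted p = 0.835), although relative to the median of all genes *Gas5* was at -0.16 with the latter scaling and with size factors. *Zbtb37*, a zinc finger gene that starts 626 bases away on the opposite strand, fell in SAM1 (-0.51, adjusted p = 4.75e-05, limma) and did not pass the test in SAM2 (-0.18, adjusted p = 0.057), with a difference between the lines of 0.33 (adjusted p = 0.00225).

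*Zfas1*, the antisense neighbour of *Znfx1*, was higher in SAM2. Its normalized counts were 1526, 1756 and 1643 in Empty, 1599, 1904 and 1631 in SAM1, and 1890.0, 2005 and 1949 in SAM2. SAM2 lay above Empty without overlap, and SAM1 overlapped both. The mean was 118.7% of Empty in SAM2, with a log2 fold change of 0.25 ± 0.065 (SE; adjusted p = 0.00393, limma), and 104.2% in SAM1, with 0.06 (95% interval -0.08 to 0.20; adjusted p = 0.436). The pooled value of 0.15 did not pass the test (adjusted p = 0.155). With scaling by the library total, *Zfas1* passed the test pooled (0.28, adjusted p = 0.0161) and in SAM1 (0.20, adjusted p = 0.0174), but relative to the shifted median of all genes its values, 0.15 and 0.05, were close to those with size factors, 0.14 and 0.05. *Znfx1*, a helicase gene that starts 1349 bases from the start of *Zfas1* and overlaps it on the opposite strand, fell in both lines, by 0.40 in SAM1 (adjusted p = 6.85e-06) and 0.36 in SAM2 (adjusted p = 1.99e-05) on the log2 scale.

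*Snhg5* hosts the near-identical *Snord50a* and *Snord50b*. Normalized counts of *Snhg5* were 909, 1076 and 1028 in Empty, 924, 1039 and 969.7 in SAM1, and 899, 892 and 889 in SAM2. SAM2 lay just below the lowest Empty library, and SAM1 lay within the Empty range. The log2 fold change was -0.17 ± 0.0614 (SE; adjusted p = 0.0282, limma) in SAM2 and -0.04 (95% interval -0.17 to 0.10; adjusted p = 0.595) in SAM1, and the pooled value of -0.10 did not pass the test (adjusted p = 0.257). The call in SAM2 was lost without Empty replicate 2 (adjusted p = 0.116) or 3 (0.0923), or without SAM2 replicate 1 (0.0584), 2 (0.0647) or 3 (0.0692). It was also lost with scaling by the library total (-0.06, adjusted p = 0.405), in limma without trend (0.0621) and with edgeR without SAM2 replicate 1 (0.0535), and so in 8 of 22 alternatives. The lines differed by -0.13 (95% interval -0.26 to 0.01), which did not pass the test (adjusted p = 0.0887, limma) and passed without Empty replicate 1 (adjusted p = 0.0337), with quantile scaling (0.0385) and with scaling by the library total (0.0386).

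**Figure D2:**
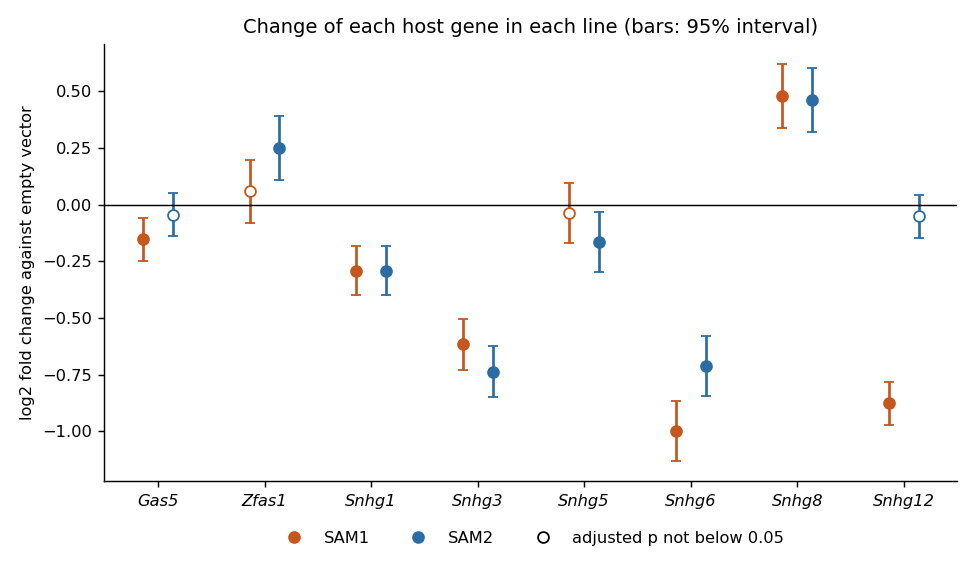
Log2 fold change of each host gene against Empty (vertical axis) in SAM1 and SAM2, with 95% intervals from limma, and open points where the adjusted p was not below 0.05. The intervals of *Snhg12* do not meet (-0.97 to -0.78 in SAM1 and -0.15 to 0.04 in SAM2), while those of *Snhg1* and *Snhg8* nearly coincide.

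Between the lines, 4 hosts were called higher in SAM2 than in SAM1 and 0 lower, with 31.1% of all genes called higher and 29.2% lower. *Snhg12* and *Snhg6* are described above. *Zfas1* was 0.19 higher (95% interval 0.05 to 0.33; adjusted p = 0.0221, limma) and *Gas5* 0.11 higher (95% interval 0.02 to 0.20; adjusted p = 0.0433) on the log2 scale, and both are small differences whose call depended on single libraries. The call of *Gas5* was lost without Empty replicate 3, either SAM1 replicate 1 or 3, or any SAM2 library (adjusted p from 0.0603 to 0.188), and that of *Zfas1* without SAM1 replicate 1 or 3 or SAM2 replicate 2 or 3 (adjusted p from 0.0564 to 0.1). With limma, 1 host was lower at an unadjusted p under 0.05. edgeR and DESeq2 on the recovered reads called 3 hosts higher and 0 lower each, with 2 and 0 lower at an unadjusted p under 0.05.

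Of the snoRNAs of the 8 hosts, 4 are listed in the table under their own names, at low counts. They fall outside the rule by which genes were named and were chosen after their values were seen. Over all 37 listed snoRNA genes, 7 were called higher and 3 lower in the pooled comparison, with a median log2 fold change of 0.33. Both calls were rarer than over the 15184 genes, of which 26.8% were higher and 27.0% lower, with a median of 0.0087. *Snora73b* had normalized counts of 51.2, 70.4 and 60.7 in Empty, 28.5, 41.5 and 32.2 in SAM1, and 29.7, 36.2 and 38.0 in SAM2, from 30 to 67 reads. Both lines lay below Empty without overlap, as did its host *Snhg3*. The log2 fold change was -0.82 ± 0.184 (SE; adjusted p = 0.00121, limma) in SAM1 and -0.79 ± 0.184 (SE; adjusted p = 0.00176) in SAM2. *Rcc1*, in which *Snhg3* lies, also spans *Snora73a* and *Snora73b* on the same strand. Its log2 fold change was 0.15 in SAM1 and -0.03 in SAM2. *Snora73a* (13 to 25 reads) had means of 25.1 ± 0.856, 19.8 ± 4.04 and 17.6 ± 4.12 (SD, n = 3) in Empty, SAM1 and SAM2, with a pooled log2 fold change of -0.43 (adjusted p = 0.109). Reads of 43 bases that cover none of its 7 differences from *Snora73b* cannot be assigned to either gene, and the share of such reads was not measured. *Snord87* (3 to 15 reads) had means of 14.1 ± 2.45, 7.82 ± 4.33 and 8.53 ± 0.984 (pooled -0.79, adjusted p = 0.0978), and *Gm23201* (7 to 24 reads) of 8.93 ± 2.06, 14.1 ± 7.55 and 13.6 ± 3.31 (pooled 0.54, adjusted p = 0.176). Both were too sparse for a difference of this size to be told from their spread. Since the libraries were made from polyA+ RNA, these counts may come from unspliced host RNA as well as from snoRNA, which cannot be told apart here.

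The hosts lie on 6 chromosomes, and the genes around them were compared over the 10 listed genes on each side. Around *Snhg6*, the median log2 fold change of the 20 neighbours was -0.54 in the pooled comparison, with 2 called higher and 11 lower, and 3 of them had a value at or below that of *Snhg6*. *Sgk3*, a kinase gene that overlaps *Snhg6* by 44267 bases on the opposite strand, had means of 327 ± 38.7 (SD, n = 3) in Empty, 145 ± 14.4 in SAM1 and 144 ± 16.1 in SAM2. Its log2 fold change was -1.17 ± 0.11 (SE; adjusted p = 1.79e-05, limma). Over the 863 listed genes of chromosome 1 the pooled median was -0.19. *Snhg6* therefore fell within a stretch of genes that were mostly lower, whereas *Gas5*, on the same chromosome, had neighbours with a median of -0.20 and a pooled value of -0.10.

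*Zfas1* lay among genes that were mostly higher. Its 20 neighbours had a pooled median of 0.41, with 13 called higher and 2 lower, and chromosome 2 as a whole had a median of 0.21. The value of *Zfas1*, 0.15, was matched or exceeded by 16 of the 20 neighbours. Around *Snhg8* the median was -0.02, and 2 of 20 neighbours had a value at or above that of *Snhg8*.

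*Snhg12* lay below its neighbours in SAM1, where their median was -0.06 and 0 of 20 were at or below its -0.88. *Sesn2* and *Snora73b*, at -0.82 each, came close to it. Between the lines the neighbours had a median of -0.15, while *Snhg12* was 0.82 higher in SAM2. The 1 of the 20 that reached this value was *Sesn2*, at 0.85, and its value in SAM2 against Empty was 0.03. *Sesn2* was named after its values were seen. For *Snhg3* the neighbours had a pooled median of -0.16, and the 1 of 20 at or below *Snhg3* was *Snora73b*, its own intronic snoRNA, since listed snoRNA genes count as neighbours here. Around *Snhg1* and *Snhg5* the pooled medians were -0.13 and -0.24.

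**Figure D3:**
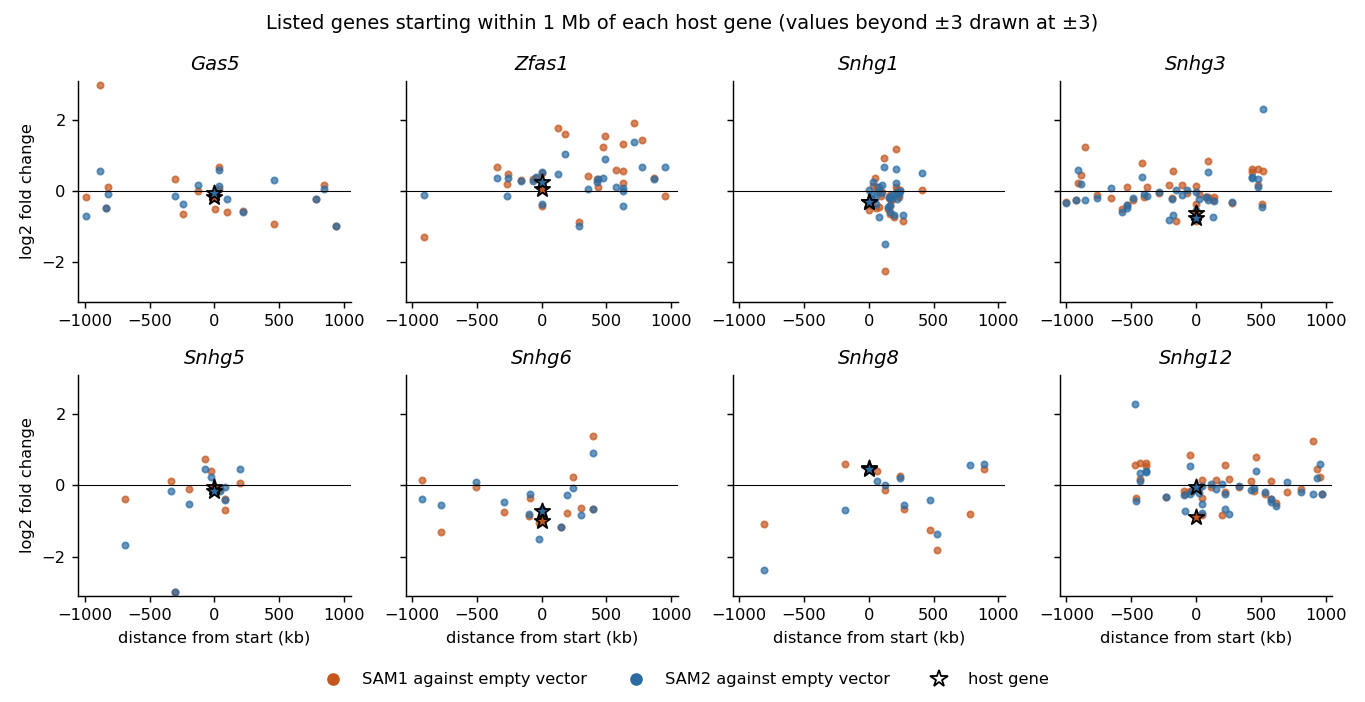
Log2 fold change against Empty (vertical axes) of the listed genes that start within 1 Mb of each host, by distance from the start of the host in kb (horizontal axes), in SAM1 and SAM2, with values beyond 3 in size drawn at 3 and stars for the host. *Snhg6* lies among mostly lower genes and *Zfas1* among mostly higher ones. The SAM1 star of *Snhg12*, at -0.88, lies below the genes around it, with *Sesn2* close at -0.82.

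The hosts shared a pattern within groups. The library with replicate number 2 was the highest of its group in 22 of the 24 combinations of host and group (91.7%), against 36.9% over all genes. The exceptions were *Snhg3* in SAM1, where replicate 3 was highest, and *Snhg5* in SAM2, where replicate 1 was. For 6 of the 8 hosts (75.0%) replicate 2 was highest in all 3 groups, against 11.7% of all genes. The median deviation of the hosts from their group mean, on the log2 scale, was 0.061, 0.098 and 0.037 in replicate 2 of Empty, SAM1 and SAM2, and -0.091 in Empty replicate 1. Cytosolic ribosomal protein genes had medians of 0.055, 0.096 and 0.030 in the same replicate 2 libraries and -0.069 in Empty replicate 1, while the medians over all genes lay between -0.0056 and 0.0052 in every library. The 3 genes whose levels followed the mean of the standardized log2 values of the hosts most closely over the 9 libraries were *Sdf2* (r = 0.989), the ribosomal protein gene *Rpl23* (r = 0.987) and *Dguok* (r = 0.987), and 132 genes had an r above 0.9. These libraries share their groups and their scaling, so the correlations are given as a description.

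**Figure D4:**
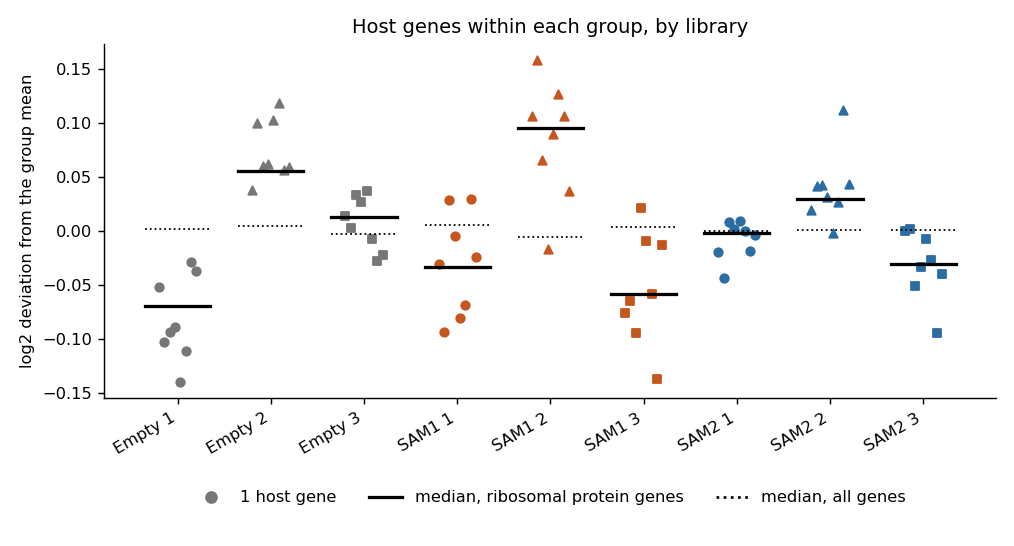
Deviation of each host gene from the mean of its group on the log2 scale (vertical axis) in each library (horizontal axis). Points are host genes, solid bars the median of ribosomal protein genes and dotted bars the median of all genes. Hosts and ribosomal protein genes are high in replicate 2 of each group and low in Empty replicate 1, with medians of -0.091 and -0.069.

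Of 15 other noncoding host genes written down as a list, 13 were in the table, and 4 were called higher and 4 lower in the pooled comparison (30.8% each, against 26.8% and 27.0% of all genes). *Snhg11* (log2 fold change 1.16), *Snhg17* (0.36), *Snhg18* (0.32) and *Snhg20* (0.35) rose. *Snhg14* (-1.28), the host of the imprinted C/D clusters near *Snrpn*, fell most, followed by *Snhg9* (-0.66), *Snhg15* (-0.41) and *Snhg16* (-0.40). *Snhg4*, *Snhg10*, *2410006H16Rik*, *Dancr* and *Epb41l4aos* did not pass the test, with values from -0.11 to 0.39. Between the lines, 2 of the 13 were called higher (15.4%) and 5 lower (38.5%) in SAM2 than in SAM1, against 31.1% and 29.2% of all genes. Of the 1187 listed lncRNA genes that hold no snoRNA, 9.01% were called higher and 39.0% lower in SAM2 than in SAM1. The largest difference was at *Snhg10*, with means of 60.3 ± 1.33 (SD, n = 3) in Empty, 97.8 ± 11.6 in SAM1 and 41.5 ± 8.32 in SAM2, and a difference between the lines of -1.23 (adjusted p = 1.62e-05, limma). *Snhg11* (-0.61), *Snhg20* (-0.37), *Snhg17* (-0.28) and *Snhg4* (-0.22) were also lower in SAM2, opposite in direction to *Snhg12*. Higher in SAM2 were *Snhg18* (0.15) and *2410006H16Rik* (0.60, adjusted p = 9.23e-07, limma), the latter with means of 1880.1 ± 46.2, 2008 ± 177 and 3032 ± 132.

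Over all 254 listed genes that hold an annotated snoRNA on their strand, 77 (30.3%) were called higher and 74 (29.1%) lower in the pooled comparison, with a median of 0.02, close to the 26.8% and 27.0% of all genes. The 25 lncRNA hosts other than the 8 had 7 higher and 7 lower (28% each) and a median of 0.24, which differed in sign between the lines, at 0.24 in SAM1 (12 higher, 6 lower) and -0.12 in SAM2 (8 higher, 8 lower). The 1187 lncRNA genes that hold no snoRNA had medians of 0.12 pooled, 0.31 in SAM1 and -0.05 in SAM2. The 29 ribosomal protein hosts had 6 higher (20.7%) and 13 lower (44.8%) and a median of -0.14, and the 49 ribosomal protein genes that hold no snoRNA had 3 higher (6.12%) and 24 lower (48.98%) and a median of -0.17. The other 192 protein-coding hosts had 63 higher (32.8%) and 51 lower (26.6%) and a median of 0.05. The largest rises among hosts past the threshold were at *Gm10701* (2.28), *Pde1c* (1.83) and *Mertk* (1.64), and the largest falls at *Xirp2* (-2.91), *Robo2* (-1.99) and *Snrpn* (-1.87). The counts of *Xirp2* were low, with means of 32.2, 8.06 and 1.26 in Empty, SAM1 and SAM2. Its log2 fold change was -1.93 in SAM1 and -3.90 in SAM2.

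**Figure D5:**
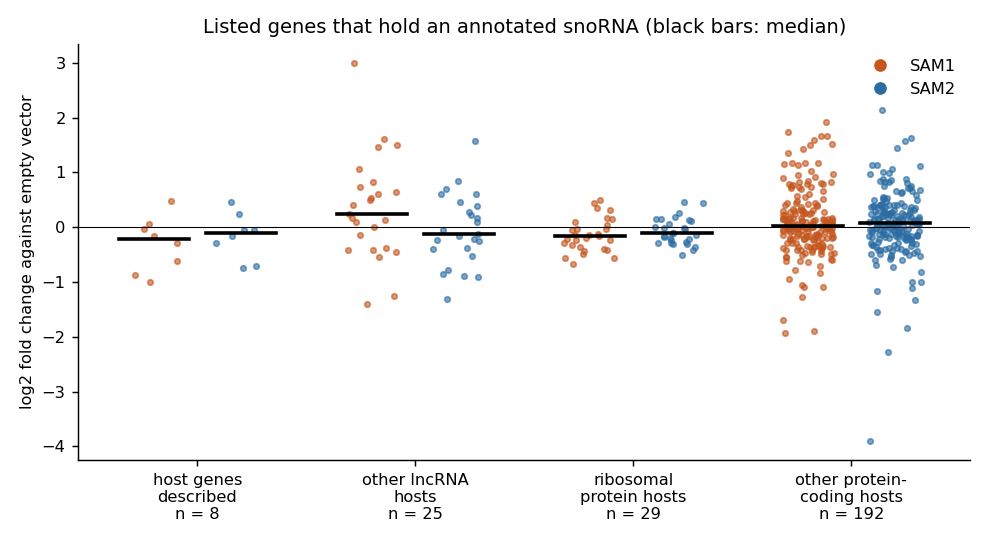
Log2 fold change against Empty (vertical axis) of listed genes that hold an annotated snoRNA, by class (horizontal axis), in SAM1 and SAM2. Points are genes and black bars are medians. The 8 hosts described here lie between -1.0 and 0.48, inside the range of the other lncRNA hosts and of the other protein-coding hosts.

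Genes that act in making and clearing host RNA and snoRNAs are given by list, with called shares to be read against the 26.8% higher and 27.0% lower over all genes in the pooled comparison. Of 19 genes for snoRNA-protein core and assembly factors, 6 were called higher (31.6%) and 5 lower (26.3%), which is near that background. *Nop58*, a core protein of C/D snoRNA particles, fell by 0.53 (adjusted p = 6.08e-06, limma) and *Pih1d1*, an assembly factor, by 0.55 on the log2 scale, while *Nufip1*, another assembly factor, rose by 0.68. Of 18 nonsense-mediated decay factors, 5 were higher and 5 lower (27.8% each), with *Smg6* at 0.57, *Smg9* at -0.50 and *Smg8* at -0.33. Of 7 mRNAs known as substrates of this decay, 1 was higher (14.3%) and 3 lower (42.9%), with *Gadd45b* at -0.88, *Ifrd1* at -0.57 and *Tbl2* at 0.40. The lines differed here: in SAM1 1 was higher (14.3%) and 6 lower (85.7%), against 37.3% and 36.9% of all genes. In SAM2 3 were higher (42.9%) and 4 lower (57.1%), against 35.2% and 35.3%. Of 13 listed genes of the RNA exosome and 5′ exonucleases, 4 were higher and 4 lower (30.8% each), with *Dis3*, the catalytic subunit, at 0.92, *Exosc8* at 0.39 and *Exosc5* at -0.67. Of 10 regulators of TOP mRNAs, which begin with a C followed by pyrimidines, 4 were higher (40%) and 2 lower (20%), with *Pcbp2* at 0.36, *Ssb* at 0.27 and *Pcbp1* at 0.24. Of 19 protein-coding hosts written down as a list, 4 were higher (21.1%) and 5 lower (26.3%), with *Cct6a* at -0.35, *Eif4a1* at 0.29 and *Ncl*, which encodes nucleolin, at 0.28.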

How the data were processed

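RNA-Seq libraries of polyA+ RNA were made with a strand-directional kit and sequenced in pairs of 43 bases. Per the labels and the study's methods, the authors aligned reads to GRCm39 with TopHat2 and Bowtie2, allowing multiple hits, counted them per gene of GENCODE vM29 with HTSeq, divided the counts by DESeq2 size factors and kept genes above 10 in at least 30% of libraries. All 15184 genes passed this filter when it was tested. The strand setting of the counting is not given in the sources used here, so reads of overlapping antisense genes may not be separated. In the deposited table each value is thus a signal: a read count divided by a size factor.

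Groups were taken from the sample titles. Log2(value + 1) was fitted with limma (3.58.1, empirical Bayes with trend) in R 4.3.3, once with both lines pooled and once with 3 groups. All p-values are from two-sided tests with Benjamini-Hochberg adjustment. Reads were recovered from the steps of the values and tested with edgeR (4.0.16, quasi-likelihood) and DESeq2 (1.42.0) as alternatives. Simulated counts with known changes were used to check all 3 tests. Coordinates and snoRNAs came from GENCODE vM39 on GRCm39, where 14791 gene names had a single match, 68 had several and 325 had no match.

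The members and gene lists were chosen with earlier results of these data known. Genes named were the 8 hosts, all other listed noncoding hosts, the 3 with the smallest pooled adjusted p in each further list, the 3 largest rises and falls among annotated hosts, genes that overlap a host or start within 1 kb on the other strand, and the 3 most correlated genes. A gene that this rule would name is not reported here. Alternatives were other pseudocounts (0.5 and 5), filters (above 10 in every library, or a mean above 50), scalings, tests, windows, the replicate block and each library left out. Precision is limited by 3 libraries per group and, for snoRNAs, by reads.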

Additional observations from a re-analysis of the deposited data

Results flagged for a closer look

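The difference between the lines passed its own test, in limma over 3 groups, for 4 hosts. SAM2 minus SAM1 was 0.82 for *Snhg12* (adjusted p = 4.73e-09), 0.29 for *Snhg6* (adjusted p = 0.0013), 0.19 for *Zfas1* (adjusted p = 0.0221) and 0.11 for *Gas5* (adjusted p = 0.0433) on the log2 scale. The 3 libraries of SAM2 lay above the 3 of SAM1 for *Snhg12* and *Snhg6*, while for *Zfas1* and *Gas5* the lines overlapped. The result was kept under all 22 alternatives for *Snhg12* and *Snhg6*, but under only 15 for *Zfas1* and 9 for *Gas5*. The cause of these differences was not tested.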

How the results depend on the processing

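The calls of *Snhg1*, *Snhg3*, *Snhg6* and *Snhg8* against Empty, pooled and in each line, of *Zfas1* in SAM2, of *Snhg12* in SAM1, and of the line difference of *Snhg12* and *Snhg6* were kept under all 22 alternatives. Scaling by the library total moved the pooled median of all genes from 0.0087 to 0.13; with no correction for that shift, it gave 2 hosts higher pooled and 2 in SAM1, and turned *Gas5* to 0.024 and *Snhg5* to 0.022 pooled, *Snhg5* to 0.10 in SAM1, and *Gas5* to 0.060 and *Snhg12* to 0.051 in SAM2. Relative to the median of all genes these hosts kept their direction, as *Gas5* and *Snhg5* did at -0.11 each pooled. Between the lines, 2 hosts were higher and 2 lower under quantile or total scaling, and 2 and 1 in limma without trend; leaving out libraries gave 2 to 4 higher and 0 to 2 lower. The line difference of *Snhg1* turned to -0.060 (quantile), -0.0027 (TMM), -0.038 (total), -0.0040 (edgeR), -0.00048 (DESeq2) and -0.0073 (edgeR without SAM2 replicate 1, chosen after seeing the data), and ranged from -0.047 to 0.033 without single libraries; that of *Snhg8* ranged from -0.086 to 0.036. In SAM1, *Snhg5* ranged from -0.11 to 0.014 and *Zfas1* from -0.021 to 0.11. The call of *Gas5* between the lines was also lost with edgeR (adjusted p = 0.0596) and DESeq2 (0.0526). In limma, that of *Zfas1* was also lost with quantile scaling (adjusted p = 0.0672), scaling by the library total (0.0701) and no trend (0.0702). The same 3 settings lost the call of *Gas5*, as did TMM scaling (adjusted p = 0.0576, limma). Over all genes, deviations from the group mean correlated weakly between same-numbered libraries (mean r 0.0531 over 9 pairs, 3 above 0.1). The mean r was -0.0265 over 18 pairs with different numbers. Among the hosts, replicate 2 was mostly highest, as given above. For SAM1 against Empty, the SE without the replicate block was from 0.976 (*Snhg3*) to 1.64 (*Zfas1*) times that with it. With the block 1 host, *Snhg5*, was called lower in SAM2 than in SAM1 (adjusted p = 0.0318, limma), and no other call of a host changed. The cause of the pattern by replicate number was not tested. Each host had 494 reads or more per library, whereas the snoRNAs listed under their own names rest on 3 to 67 reads.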
